A study of Mus musculus with 6 samples.

Results

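Branched-chain amino acid degradation was followed through 31 genes for the breakdown of leucine, isoleucine and valine towards acetyl-CoA and succinyl-CoA. They include regulators, cofactor genes and aldehyde dehydrogenases whose substrates reach beyond these amino acids. The genes were found by symbol in the deposited table, where all 31 were present among 56691 genes, and 30 had a mean of at least 0.5 FPKM (fragments per kilobase of exonic length, scaled by the counts in genes of each library) over the 6 libraries. The mean level therefore decided which genes were used, and levels are given as a description. The lowest gene inside that limit was Mmaa with a mean of 1.38 FPKM, and the gene outside it was Bcat1 with 0.0283 FPKM.

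The libraries came from Kupffer cells, macrophages that live in the sinusoids of the liver, with 3 libraries labelled 5-HT treated (serotonin) and 3 labelled untreated. Mice of both groups were Vil1Cre-Myd88fl/fl: a floxed Myd88 allele, the adaptor gene of most Toll-like receptors, with Cre under the Vil1 promoter, which is active in intestinal epithelium. The series concerns serotonin made under the influence of commensal bacteria and the delivery of vectors in vivo, and the 2 groups show how cells with and without added 5-HT differ. The sources used here do not give the dose, route or duration, the age of the mice or how many animals stand behind a library, so the p-values measure a spread among libraries that may be technical.

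The breakdown of branched-chain amino acids starts in the cytosol or mitochondrion with a reversible transamination, and the resulting keto acids are committed by the branched-chain keto acid dehydrogenase (BCKDH) complex, which a kinase switches off and a phosphatase switches on. The routes then part: leucine ends in acetyl-CoA and acetoacetate, valine in propionyl-CoA, and isoleucine in both acetyl-CoA and propionyl-CoA. In liver, hepatocytes are known for a high activity of the dehydrogenase and a low activity of the transaminase, whereas macrophages are known for taking up leucine through the large neutral amino acid transporter.

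Total counts ran from 15390956 to 17093251 in the 5-HT treated libraries and from 18187617 to 19050039 in the untreated libraries. The 10 Kupffer cell markers summed to 961 to 1156 FPKM in the 5-HT treated libraries and 506 to 779 FPKM in the untreated libraries. By edgeR, 5 of the 10 rose, against 4.55% of all genes tested. The 10 markers of liver sinusoidal endothelium summed to 3315 to 4515 FPKM in the 5-HT treated libraries and 4172 to 4271 FPKM in the untreated libraries, so the labelled Kupffer cell libraries also held abundant endothelial RNA. Of these 10, Kdr, Fcgr2b and Oit3 fell and Lyve1 rose by edgeR (log2 -0.78, -0.56, -0.74 and 1.79). Among all genes tested, 3.19% were lower and 4.55% higher. Every 5-HT treated library lay below every untreated one for 6 of the 10, against 14.3% of all genes tested. It lay above for 2, against 15.4%, and the median log2 value of the 10 was -0.37. Neutrophil markers summed to 352 to 922 FPKM in the 5-HT treated libraries and 136 to 171 FPKM in the untreated libraries. By edgeR, 6 of the 7 tested rose, against 4.55% of all genes tested. Stellate cell and fibroblast markers summed to 80.3 to 161 FPKM in the 5-HT treated libraries and 135 to 225 FPKM in the untreated libraries. All 10 had log2 values below 0 (median -1.03), and 1 fell by edgeR, against 3.19% of all genes tested. In these bulk samples, fewer cells of a type and less RNA per cell cannot be told apart, and the part of these markers in the results below was not tested.

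With 5-HT, 11 of the 30 tested genes of branched-chain degradation fell, none rose and 19 did not pass (edgeR quasi-likelihood test, Benjamini-Hochberg adjusted p under 0.05 over 16641 genes). Over all genes tested, 3.19% fell and 4.55% rose (7.74% in either direction), and among tested genes averaging 0.5 FPKM or more, 3.43% fell and 4.99% rose. The 11 were Abat, Pcca, Mccc2, Pccb, Aldh7a1, Aldh9a1, Mccc1, Bckdha, Mcee, Hsd17b10 and Acat1. The median log2 change of the 30 was -0.39, against -0.02 over all genes tested, and 27 of the 30 had a value below 0. The FPKM of all 3 5-HT treated libraries lay below that of all 3 untreated libraries for 16 of the 30 genes, against 14.3% of all genes tested, and above it for 2, against 15.4%. At an unadjusted p under 0.05 there were 16 of 30 lower and none higher, against 11.5% of all genes lower. DESeq2 called 14 of the 30 lower and none higher, against 6.14% of all genes lower. The summed level of the 31 genes was 352, 364 and 359 FPKM in 5-HT treated replicates 1 to 3, against 499, 408 and 496 FPKM in untreated replicates 1 to 3. The 5-HT treated libraries lay close together, and the untreated libraries were spread more widely, with untreated replicate 2 nearest to the 5-HT treated group.

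**Figure D1:**
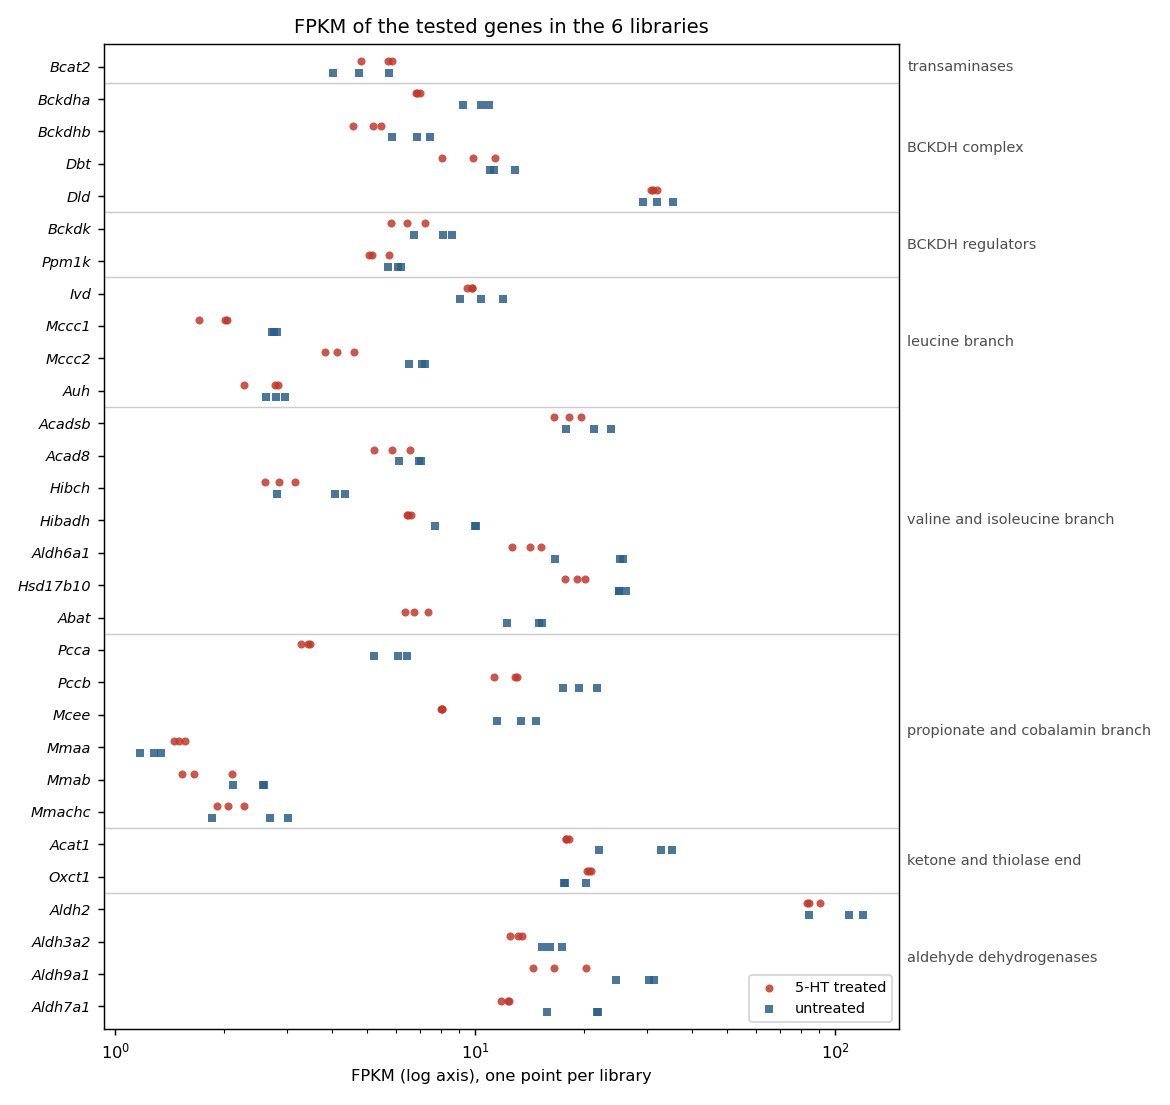
FPKM on a log axis for each of the 30 tested genes, grouped by role, with 1 point per library (circles, 5-HT treated; squares, untreated). For 16 genes every circle lies left of every square, for Mmaa and Oxct1 every circle lies right of every square, and in most rows the leftmost square is untreated replicate 2.

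The transaminases, which take the amino group off all 3 amino acids, did not change detectably. Bcat1, the cytosolic enzyme, had 1, 11 and 4 counts in 5-HT treated replicates 1 to 3 and 5, 1 and 2 counts in untreated replicates 1 to 3. These were too few to enter the reported fit. Bcat2, the mitochondrial enzyme, averaged 5.45 ± 0.568 FPKM in 5-HT treated and 4.83 ± 0.869 FPKM in untreated libraries (SD, n = 3 each). Its log2 change was 0.18 with a 95% interval from -0.18 to 0.55 (edgeR adjusted p = 0.531), and its groups overlapped.

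Of the 4 genes of the BCKDH complex, 1 fell. Bckdha, which encodes the alpha subunit of the decarboxylase E1 (ENSMUSG00000060376, chromosome 7 from 25629946 to 25658981, minus strand, GRCm38), had 6.82, 7.01 and 6.87 FPKM in 5-HT treated replicates 1 to 3 and 10.94, 10.34 and 9.26 FPKM in untreated replicates 1 to 3. The 5-HT treated libraries were nearly equal and all below the untreated ones, a log2 change of -0.55 (SE 0.12, edgeR adjusted p = 0.0331). Its exons overlap those of B3gnt8 on the opposite strand by 1171 bases, and B3gnt8 was at 0.36 to 0.48 FPKM in the 5-HT treated and 0.34 to 0.80 FPKM in the untreated libraries. Bckdhb, the beta subunit of E1, had 4.58, 5.47 and 5.19 FPKM in 5-HT treated and 7.49, 5.86 and 6.89 FPKM in untreated replicates 1 to 3. The groups did not overlap, but the gene did not pass (log2 -0.41, 95% interval -0.79 to -0.02, edgeR adjusted p = 0.184). Dbt, the transacylase core E2, had a log2 value of -0.26 (95% interval -0.59 to 0.06, edgeR adjusted p = 0.304). Dld, the lipoamide dehydrogenase E3 that the complex shares with the pyruvate and 2-oxoglutarate dehydrogenases, averaged 31.3 ± 0.614 FPKM in 5-HT treated and 32.2 ± 3.15 FPKM in untreated libraries (SD, n = 3 each). Its log2 change was -0.04 with a 95% interval from -0.28 to 0.20 (edgeR adjusted p = 0.865). The value of -0.55 for Bckdha lies outside that interval, but the 95% interval of Bckdha itself ran from -0.83 to -0.28. Whether Dld and Bckdha differ was not tested.

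Neither regulator of the complex passed. Bckdk, the kinase that inactivates E1, had 5.81, 6.45 and 7.24 FPKM in 5-HT treated and 8.59, 8.10 and 6.73 FPKM in untreated replicates 1 to 3 (log2 -0.26, 95% interval -0.57 to 0.06, edgeR adjusted p = 0.302). Ppm1k, the phosphatase that reactivates it, had a log2 value of -0.17 (95% interval -0.40 to 0.07, edgeR adjusted p = 0.356). The ratio of Bckdk to Ppm1k in FPKM was 1.22 ± 0.0844 in 5-HT treated and 1.30 ± 0.168 in untreated libraries (SD, n = 3 each), a difference smaller than the spread of the untreated libraries.

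On the leucine branch, both subunits of methylcrotonyl-CoA carboxylase fell and the enzymes before and after it did not pass. Mccc1 encodes the biotin-carrying alpha subunit (ENSMUSG00000027709, chromosome 3 from 35959312 to 36000678, minus strand, GRCm38). It had 2.04, 1.71 and 2.02 FPKM in 5-HT treated and 2.81, 2.76 and 2.72 FPKM in untreated replicates 1 to 3 (log2 -0.51, SE 0.11, edgeR adjusted p = 0.0328). Mccc2, the beta subunit (ENSMUSG00000021646, chromosome 13 from 99948530 to 100015639, minus strand, GRCm38), had 3.82, 4.13 and 4.59 FPKM in 5-HT treated and 7.10, 6.52 and 7.23 FPKM in untreated replicates 1 to 3 (log2 -0.73, SE 0.13, edgeR adjusted p = 0.0205). Neither gene's groups overlapped. Ivd, the isovaleryl-CoA dehydrogenase just before the carboxylase, averaged 9.69 ± 0.163 FPKM in 5-HT treated and 10.45 ± 1.43 FPKM in untreated libraries (SD, n = 3 each; log2 -0.10, 95% interval -0.38 to 0.17, edgeR adjusted p = 0.649). Auh, the methylglutaconyl-CoA hydratase just after it, had a log2 value of -0.08 (95% interval -0.35 to 0.19, edgeR adjusted p = 0.716).

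Propionyl-CoA carboxylase, the biotin enzyme that valine and isoleucine share, fell in both subunits as well. Pcca, the biotin-carrying alpha subunit (ENSMUSG00000041650, chromosome 14 from 122534324 to 122891100, plus strand, GRCm38), had 3.28, 3.42 and 3.48 FPKM in 5-HT treated and 6.11, 5.21 and 6.44 FPKM in untreated replicates 1 to 3 (log2 -0.80, SE 0.12, edgeR adjusted p = 0.0110). Pccb, the beta subunit (ENSMUSG00000032527, chromosome 9 from 100982032 to 101034898, minus strand, GRCm38), had 12.89, 13.06 and 11.25 FPKM in 5-HT treated and 21.75, 17.47 and 19.38 FPKM in untreated replicates 1 to 3 (log2 -0.65, SE 0.11, edgeR adjusted p = 0.0167). Both genes had a wide gap between the groups. The level of Pcca was 0.275 ± 0.0298 of that of Pccb in 5-HT treated and 0.304 ± 0.0261 in untreated libraries (SD, n = 3 each), a difference of about the spread between replicates.

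The 4 carboxylase subunit genes fell together, and their promoters are shown as the 120 bases before the RefSeq transcription start on the strand of the gene, read 5′ to 3′, with CpG dinucleotides in capitals. They lie in GRCm38.p6 at chr14:122534208-122534327 for Pcca, chr9:101034885-101035004 for Pccb, chr3:36000679-36000798 for Mccc1 and chr13:100015640-100015759 for Mccc2.
Pcca: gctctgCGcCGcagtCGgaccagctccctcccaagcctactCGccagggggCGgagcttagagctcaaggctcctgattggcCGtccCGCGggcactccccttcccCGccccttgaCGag
Pccb: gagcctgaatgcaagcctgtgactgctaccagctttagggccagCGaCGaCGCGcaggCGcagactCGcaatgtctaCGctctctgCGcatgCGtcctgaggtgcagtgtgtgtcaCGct
Mccc1: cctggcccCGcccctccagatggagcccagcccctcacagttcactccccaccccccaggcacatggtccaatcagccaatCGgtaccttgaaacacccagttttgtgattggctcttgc
Mccc2: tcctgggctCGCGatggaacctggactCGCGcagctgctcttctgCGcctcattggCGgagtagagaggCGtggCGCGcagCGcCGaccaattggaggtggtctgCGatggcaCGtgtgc

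In the full RefSeq window, from 250 bases before to 50 bases after the start, Pcca held 21 CpG, Pccb 20, Mccc2 19 and Mccc1 8. The 26 genes of the set with a window had a median of 17 CpG, in the window nearest the gene start, and the median over all 32851 windows was 7. The 8 of the 26 that fell by edgeR also had a median of 17 CpG. Pcca has another RefSeq window, at chr14:122484115-122484414, and the one nearest the gene start is shown. Exact matches on both strands were sought for the cAMP response element TGACGTCA, the extended ERR half-site TCAAGGTCA and the NRF1 core GCGCATGCG, which do not overlap one another here. The first was in 1.79%, the second in 0.423% and the third in 1.75% of all windows. Among the 32 windows of the set there was 1 match, that of the NRF1 core in Pccb, whose first base lies at -35 from the start. A match is a description of letters and no evidence of binding.

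The steps after propionyl-CoA carboxylase were mixed. Mcee, the methylmalonyl-CoA epimerase (ENSMUSG00000033429, chromosome 7 from 64392607 to 64412125, plus strand, GRCm38), had 8.05, 8.02 and 8.08 FPKM in 5-HT treated and 13.34, 11.47 and 14.72 FPKM in untreated replicates 1 to 3 (log2 -0.71, SE 0.16, edgeR adjusted p = 0.0384). The 5-HT treated libraries were nearly identical and clearly below the untreated ones. Mmut, the cobalamin-dependent mutase that follows, had a log2 value of -0.21 (95% interval -0.51 to 0.09, edgeR adjusted p = 0.376). Of the genes that prepare its cobalamin cofactor, Mmaa, a chaperone of the mutase, had 1.45, 1.56 and 1.50 FPKM in 5-HT treated and 1.34, 1.17 and 1.28 FPKM in untreated replicates 1 to 3, higher in every 5-HT treated library without passing (log2 0.25, 95% interval -0.10 to 0.61, edgeR adjusted p = 0.355). Mmab, the adenosyltransferase, had a log2 value of -0.45 (95% interval -0.89 to -0.01, edgeR adjusted p = 0.195), with 5-HT treated libraries just below the untreated ones. Mmachc, which trims dietary cobalamins, had a log2 value of -0.27 with overlapping groups (95% interval -0.82 to 0.28, edgeR adjusted p = 0.548).

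On the valine and isoleucine branch, 2 of 7 genes fell and all 7 had log2 values below 0. Abat, the 4-aminobutyrate transaminase that also acts on the semialdehyde products of valine, changed most among the 30 genes. It lies on chromosome 16 from 8513429 to 8621568, plus strand, in GRCm38 (ENSMUSG00000057880) and had 7.39, 6.36 and 6.76 FPKM in 5-HT treated and 15.05, 12.24 and 15.27 FPKM in untreated replicates 1 to 3. The highest 5-HT treated library was far below the lowest untreated one, and the gene fell by 51.7% (log2 -1.05, SE 0.12, edgeR adjusted p = 0.00382). Hsd17b10, a hydroxyacyl-CoA dehydrogenase of the isoleucine route (ENSMUSG00000025260, chromosome X from 152001845 to 152004442, plus strand, GRCm38), had 19.09, 20.17 and 17.71 FPKM in 5-HT treated and 25.03, 24.97 and 26.21 FPKM in untreated replicates 1 to 3, without overlap. Its fall was smaller (log2 -0.41, SE 0.10, edgeR adjusted p = 0.0424).

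The last 3 enzymes of the valine route had values in the same direction without passing. Hibch, the hydroxyisobutyryl-CoA hydrolase, averaged 2.87 ± 0.275 FPKM in 5-HT treated and 3.74 ± 0.813 FPKM in untreated libraries (SD, n = 3 each; log2 -0.38, 95% interval -0.82 to 0.06, edgeR adjusted p = 0.275). Hibadh, the hydroxyisobutyrate dehydrogenase, had 6.49, 6.63 and 6.45 FPKM in 5-HT treated and 10.04, 7.74 and 9.94 FPKM in untreated replicates 1 to 3 (log2 -0.50, SE 0.12, edgeR adjusted p = 0.0525). Aldh6a1, the methylmalonate semialdehyde dehydrogenase, had 15.23, 14.13 and 12.63 FPKM in 5-HT treated and 25.19, 16.68 and 25.67 FPKM in untreated replicates 1 to 3 (log2 -0.68, SE 0.18, edgeR adjusted p = 0.0619). In both, untreated replicate 2 lay between the 5-HT treated libraries and the other untreated ones. The acyl-CoA dehydrogenases Acadsb and Acad8, which act on the isoleucine and valine products, had log2 values of -0.21 and -0.18 with overlapping groups (edgeR adjusted p = 0.410 and 0.448).

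At the acetyl-CoA and ketone end, the thiolase gene fell and the transferase gene did not. Acat1, the mitochondrial acetoacetyl-CoA thiolase (ENSMUSG00000032047, chromosome 9 from 53580522 to 53610382, minus strand, GRCm38), had 17.80, 18.21 and 17.79 FPKM in 5-HT treated and 32.86, 22.08 and 35.17 FPKM in untreated replicates 1 to 3. The groups did not overlap, and untreated replicate 2 was the nearest to the 5-HT treated libraries (log2 -0.74, SE 0.18, edgeR adjusted p = 0.0479). Oxct1, which activates acetoacetate for oxidation outside hepatocytes, had 20.47, 20.91 and 20.66 FPKM in 5-HT treated and 17.68, 17.65 and 20.31 FPKM in untreated replicates 1 to 3. It was slightly higher in every 5-HT treated library without passing (log2 0.16, 95% interval -0.05 to 0.38, edgeR adjusted p = 0.338). The ratio of Acat1 to Oxct1 in FPKM was 0.867 ± 0.00532 in 5-HT treated and 1.61 ± 0.321 in untreated libraries (SD, n = 3 each).

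Of the 4 aldehyde dehydrogenases, whose substrates reach beyond branched-chain products, 2 fell. Aldh9a1, which acts on aminobutyraldehyde (ENSMUSG00000026687, chromosome 1 from 167349991 to 167368532, plus strand, GRCm38), had 16.53, 20.28 and 14.49 FPKM in 5-HT treated and 30.42, 24.54 and 31.37 FPKM in untreated replicates 1 to 3 (log2 -0.75, SE 0.15, edgeR adjusted p = 0.0302). Aldh7a1, a lysine degradation enzyme (ENSMUSG00000053644, chromosome 18 from 56509687 to 56572951, minus strand, GRCm38), had 12.33, 12.39 and 11.80 FPKM in 5-HT treated and 21.81, 15.83 and 21.93 FPKM in untreated replicates 1 to 3 (log2 -0.70, SE 0.14, edgeR adjusted p = 0.0291). The groups of both genes stood apart. Aldh2, the mitochondrial acetaldehyde dehydrogenase and the most abundant gene of the set per length, had 83.11, 84.56 and 90.72 FPKM in 5-HT treated and 119.35, 84.46 and 108.70 FPKM in untreated replicates 1 to 3. Its groups overlapped through untreated replicate 2 (log2 -0.27, 95% interval -0.61 to 0.08, edgeR adjusted p = 0.317). Aldh3a2, the fatty aldehyde dehydrogenase, had a log2 value of -0.31 (SE 0.08, edgeR adjusted p = 0.0635) with groups that did not overlap.

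**Figure D2:**
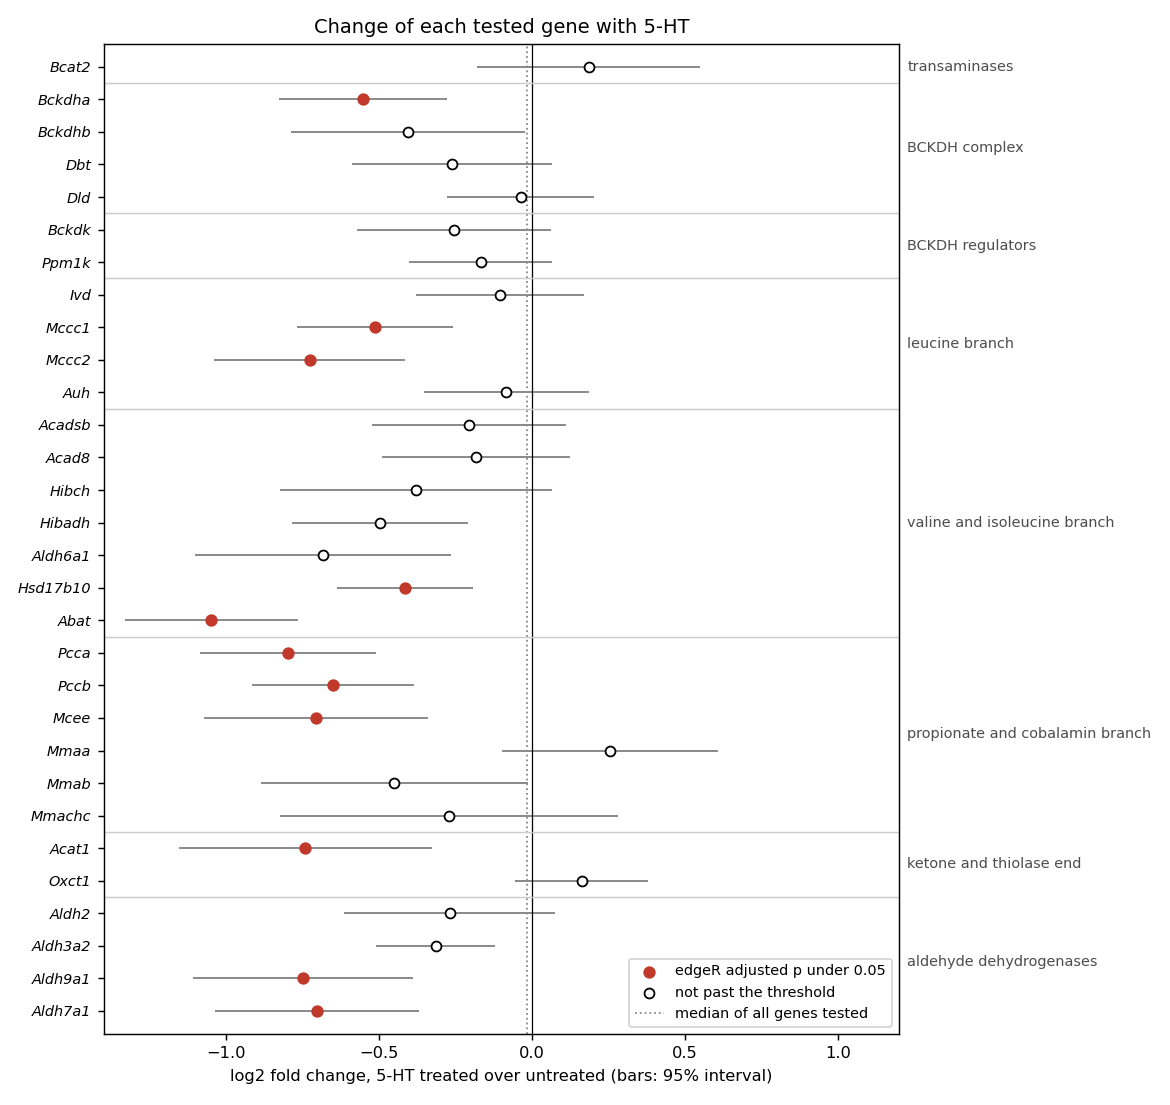
Log2 fold change, 5-HT treated over untreated, with its 95% interval for the 30 tested genes, grouped by role; filled points are the 11 with an edgeR adjusted p under 0.05 and the dotted line is the median of all genes tested, -0.02. Abat lies farthest left at -1.05, Bcat2, Mmaa and Oxct1 lie right of 0, and Dld, Ivd and Auh lie close to 0.

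Hepatocyte RNA was measured in the same libraries, since these enzymes are abundant in hepatocytes. Alb, the albumin gene, had 1239.54, 1079.85 and 368.93 FPKM in 5-HT treated and 577.79, 435.12 and 648.68 FPKM in untreated replicates 1 to 3. Ttr, the transthyretin gene, had 70.96, 61.08 and 22.15 FPKM in 5-HT treated and 56.42, 61.77 and 49.53 FPKM in untreated replicates 1 to 3. Within the 5-HT treated group both were far higher in replicates 1 and 2 than in replicate 3. The summed level of the branched-chain genes was 352 to 364 FPKM in these libraries, of which Aldh2 alone gave 83.11 to 90.72 FPKM. Whether that sum follows hepatocyte RNA was not tested. The order of the 3 libraries was that of Alb in 1 of 30 genes in the 5-HT treated group and in 15 of 30 in the untreated group. The share of all genes in that order was not counted, so neither number can be read as a relation to hepatocyte RNA. With the level of Alb and Ttr per library as a term in the fit, 9 of the 30 genes fell and none rose, against 3.2% of all genes lower, Abat with a log2 change of -1.05 (edgeR adjusted p = 0.00747). Mcee and Acat1 no longer passed, with log2 values of -0.71 and -0.75 (-0.71 and -0.74 without the term).

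Hepatocyte genes did not all move alike. Of the 15 hepatocyte markers none passed by edgeR. At an unadjusted p under 0.05 in the same fit, 4 were lower and 1 higher, against 11.5% of all genes lower. DESeq2 called 4 of the 15 lower and none higher, against 6.14% of all genes lower. Their median log2 value was -0.17, with 10 of the 15 values below 0 and 5 above 0. Tat, the tyrosine aminotransferase gene, had 100.40, 64.57 and 66.24 FPKM in 5-HT treated and 264.44, 105.27 and 259.61 FPKM in untreated replicates 1 to 3. Pck1, the gluconeogenic carboxykinase gene, had 96.22, 68.57 and 77.25 FPKM in 5-HT treated and 275.17, 95.87 and 265.68 FPKM in untreated replicates 1 to 3. Fgg, a fibrinogen chain gene, had values in the other direction, with 68.61, 44.95 and 10.73 FPKM in 5-HT treated and 17.50, 9.41 and 19.21 FPKM in untreated replicates 1 to 3 (log2 1.42, edgeR adjusted p = 0.197, unadjusted p = 0.0456). Fgb, Ahsg and Apoa1 also had log2 values above 0 (1.23, 0.62 and 0.57) without passing. The 4 markers lower at an unadjusted p under 0.05 were Tat, Cyp2e1, Hpd and Pck1. Tat, Cyp2e1 and Hpd had log2 values of -1.45, -1.34 and -0.92 (edgeR adjusted p = 0.0548, 0.0648 and 0.0793). For Pck1 the edgeR adjusted p was 0.0682. All 3 of Tat, Pck1 and Fgg were low in untreated replicate 2, as were 13 of the 15 hepatocyte markers relative to the other untreated libraries. The same library was the lowest untreated one for 22 of the 30 branched-chain genes, against 34.1% of all genes tested, and for 8 of the 10 Kupffer cell markers. With the mean of all 15 hepatocyte markers as a term, a setting chosen after the data were seen, 6 of the 30 genes fell and none rose, against 2.53% of all genes lower: Abat, Pcca, Pccb, Mccc2, Aldh9a1 and Aldh7a1. The log2 values of the 5 that no longer passed were -0.56 for Bckdha, -0.52 for Mccc1, -0.40 for Hsd17b10, -0.67 for Mcee and -0.65 for Acat1, against -0.55, -0.51, -0.41, -0.71 and -0.74 without the term.

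**Figure D3:**
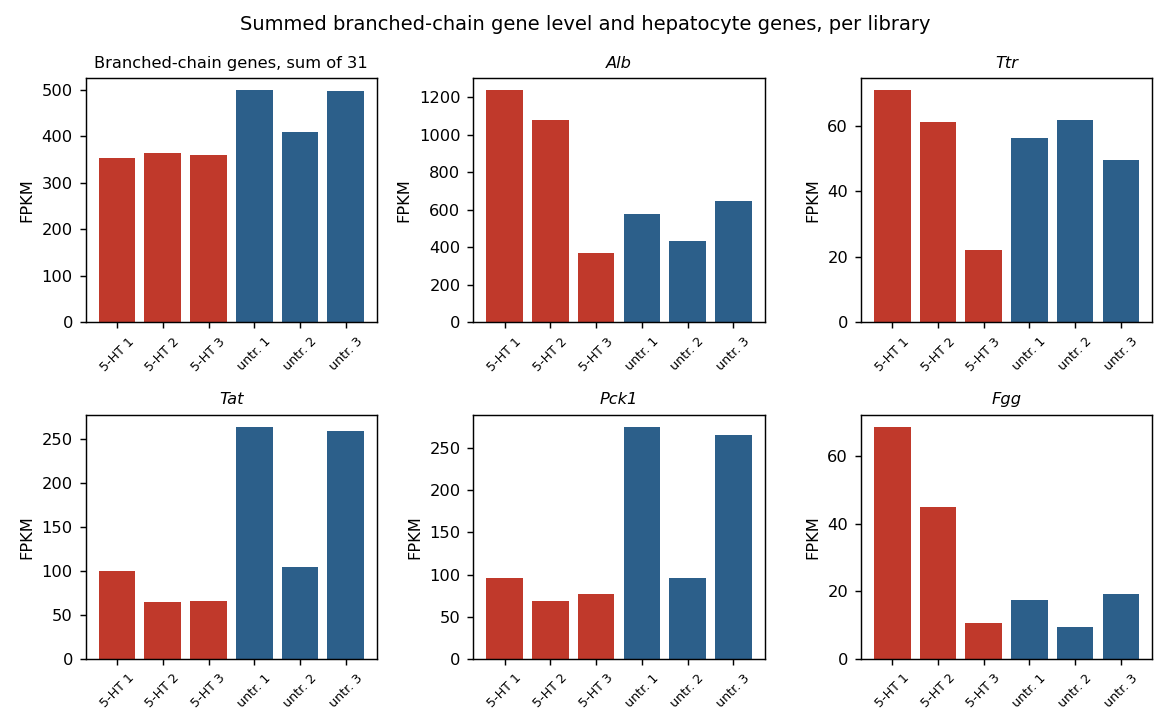
FPKM per library (bars from 0; 5-HT treated, left, and untreated, right) of the 31 branched-chain genes summed and of the hepatocyte genes Alb, Ttr, Tat, Pck1 and Fgg. In the 5-HT treated libraries the summed level was 352 to 364 FPKM and Alb was 368.93 to 1239.54 FPKM. Untreated replicate 2 was the lowest untreated library for Tat, Pck1 and Fgg.

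The transporters that bring these amino acids into the cell were measured from a list of 9, of which 8 were tested. By edgeR 2 of the 8 fell and none rose, against 3.19% and 4.55% of all genes tested. None was higher at an unadjusted p under 0.05 or by DESeq2. Slc7a5 encodes LAT1, the light chain of the large neutral amino acid exchanger (ENSMUSG00000040010, chromosome 8 from 121881150 to 121907694, minus strand, GRCm38). It had 16.52, 19.33 and 21.41 FPKM in 5-HT treated and 53.03, 46.41 and 46.96 FPKM in untreated replicates 1 to 3, a fall of larger size than that of any of the 30 enzyme genes (log2 -1.35, SE 0.13, edgeR adjusted p = 0.00187). All 5-HT treated libraries were far below the untreated ones. Slc3a2, its heavy chain, which serves several light chains, had 82.81 to 93.92 FPKM in the 5-HT treated and 85.63 to 97.06 FPKM in the untreated libraries (log2 -0.03, edgeR adjusted p = 0.898). Slc43a2, a facilitated transporter of large neutral amino acids, had 24.16, 21.99 and 22.94 FPKM in 5-HT treated and 32.11, 39.69 and 32.87 FPKM in untreated replicates 1 to 3 (log2 -0.59, SE 0.10, edgeR adjusted p = 0.0178). Slc25a44, the mitochondrial carrier of branched-chain amino acids, had a log2 value of 0.04 (edgeR adjusted p = 0.836).

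Of 17 other genes that serve the pathway or share its later steps, 5 fell and none rose by edgeR. The shares of all genes tested were 3.19% and 4.55%. Their median log2 value was -0.39 for the 17 genes, and all 17 values were below 0. DESeq2 called 7 of the 17 lower and none higher, against 6.14% of all genes lower. Bdh1, the hydroxybutyrate dehydrogenase of ketone bodies, had 1.19, 1.70 and 1.10 FPKM in 5-HT treated and 7.85, 3.88 and 7.67 FPKM in untreated replicates 1 to 3 (log2 -2.28, SE 0.32, edgeR adjusted p = 0.00794). Every 5-HT treated library was below every untreated one, and untreated replicate 2 was the lowest of its group. Hadh, a hydroxyacyl-CoA dehydrogenase, had a log2 change of -0.78 (edgeR adjusted p = 0.00930), the mitochondrial thiolase Acaa2 of -0.99 (edgeR adjusted p = 0.0371) and the cytosolic synthase of sterol synthesis Hmgcs1 of -0.46 (edgeR adjusted p = 0.0452). Acaa1b had a log2 change of -1.49 (edgeR adjusted p = 0.0204) but is uncertain as a single gene because reads can be split with its close copy Acaa1a (log2 -0.23).

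**Figure D4:**
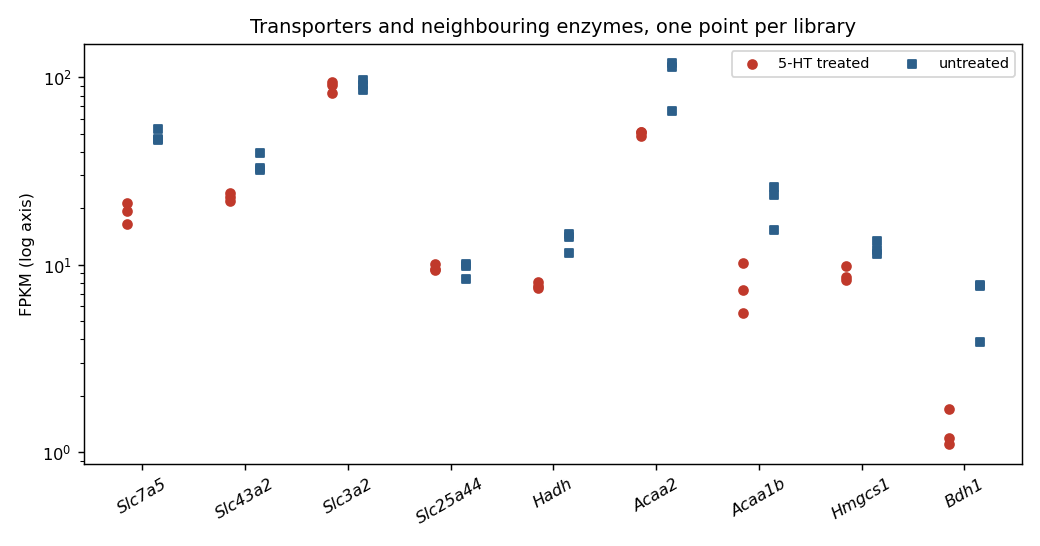
FPKM on a log axis of 9 transporter and neighbouring enzyme genes, with 1 point per library (circles, 5-HT treated; squares, untreated). Slc7a5, Slc43a2, Hadh, Acaa2, Acaa1b, Hmgcs1 and Bdh1 have every circle below every square, and Slc3a2 and Slc25a44 overlap.

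The tricarboxylic acid cycle and the sister dehydrogenase complexes were set beside the branched-chain genes as another list of genes for mitochondrial enzymes. Of 26 such genes 2 fell, none rose and 24 did not pass by edgeR, against 3.19% of all genes lower and 4.55% higher. The median log2 value of the 26 was -0.13, with 18 values below 0 and 8 above 0. Every 5-HT treated library lay below every untreated one for 10 of the 26, against 14.3% of all genes tested. It lay above for 3, against 15.4%. At an unadjusted p under 0.05 in the same fit, 9 were lower and 2 higher, against 11.5% of all genes lower. DESeq2 called 3 lower and 2 higher, against 6.14% of all genes lower. Whether the branched-chain set differs from these 26 genes was not tested. The 2 were Pdk2, a kinase of the pyruvate dehydrogenase (log2 -0.66, SE 0.13, edgeR adjusted p = 0.0238), and Pdhb, the beta subunit of its E1 (log2 -0.36, SE 0.09, edgeR adjusted p = 0.049997). Sdha, the most abundant of the cycle's genes per length on average, had 47.51, 48.23 and 49.05 FPKM in 5-HT treated and 64.23, 52.06 and 63.71 FPKM in untreated replicates 1 to 3 (log2 -0.31, edgeR adjusted p = 0.149). Ogdh, the E1 of the 2-oxoglutarate dehydrogenase, had a log2 value of -0.15 (edgeR adjusted p = 0.276), and Cs, the citrate synthase gene that opens the cycle, of 0.07 (edgeR adjusted p = 0.678).

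The number of branched-chain genes that fell rested on single libraries. It was 1 without untreated replicate 1 and 1 without untreated replicate 3, Abat in both cases, and 2 without 5-HT treated replicate 1 (Abat and Pcca). It was 5 without 5-HT treated replicate 2, 5 without 5-HT treated replicate 3 and 10 without untreated replicate 2. The share of all genes that fell moved too, to 0.652%, 0.68% and 1.29% in the first 3 of these fits, and was 2.86%, 2.85% and 3.98% in the other 3. Of the 11 genes, Abat kept its call in all 16 alternative fits, with adjusted p up to 0.0266. The call of Pcca was lost in 2 of the 16, those of Mccc2 and Pccb in 3, of Aldh9a1 in 5, of Aldh7a1 in 6, of Mcee in 8, of Bckdha, Mccc1 and Hsd17b10 in 9 and of Acat1 in 10. All 176 log2 values of the 11 genes in these fits were below 0. Among the neighbouring genes, Slc7a5 and Bdh1 kept their calls in all 16, Hadh and Acaa1b lost theirs in 2, Slc43a2 in 4, Pdk2 in 5, and Acaa2, Hmgcs1 and Pdhb in 10.

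**Figure D5:**
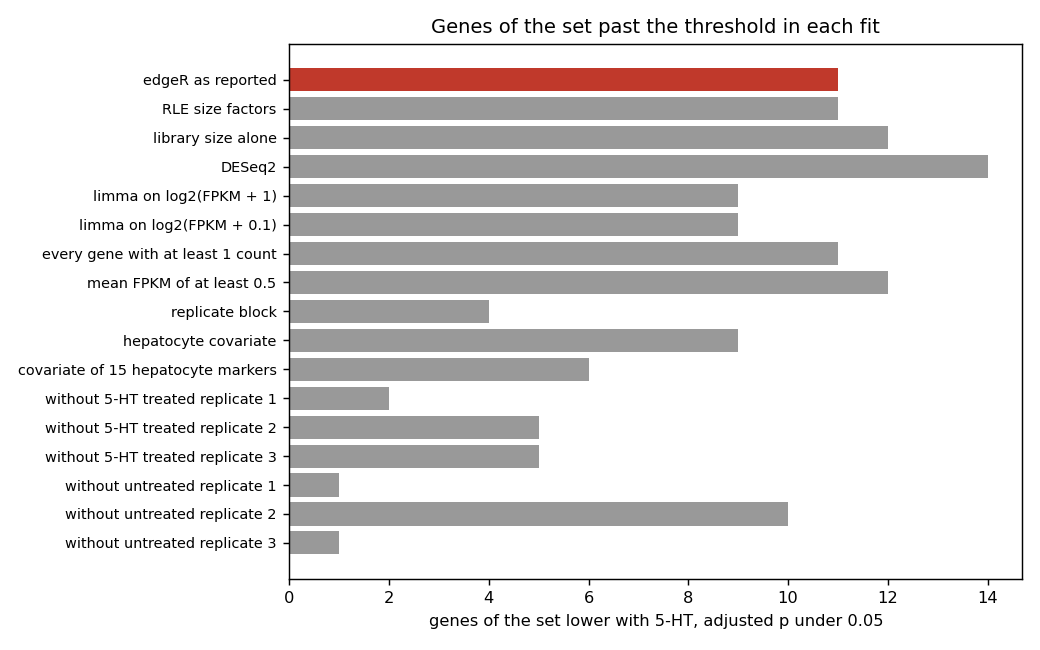
Number of the branched-chain genes lower with 5-HT at an adjusted p under 0.05 in the edgeR fit as reported (11, top bar) and in each of 16 alternative fits; bars start at 0. The number ran from 1, without untreated replicate 1 or 3, to 14 with DESeq2, and no fit had a gene higher.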

How the data were processed

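The deposited table holds a raw count and an FPKM per gene for each of 6 libraries; per the file headers the counts are not normalized. Per the submitters' processing notes HISAT2 2.2.1, featureCounts 2.0.1 and mm10 were used, without saying for which step. FPKM of at least 1 were recomputed from the deposited counts, exonic lengths and column totals, and 100% came within 0.5% or the rounding. The deposited positions of the 31 genes differ from GENCODE M21 (GRCm38), so positions were taken from GENCODE M21 by identifier. Promoters are RefSeq's on GRCm38.p6. The sources used here do not say whether counting used strand: exons of 10 of the 31 genes overlap those of another gene.

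Counts were tested with edgeR 4.0.16 in R 4.3.3 (TMM, filterByExpr, quasi-likelihood, two-sided), adjusted over the 16641 genes tested, threshold 0.05; SE is |log2 fold change| over the root of F. Intervals come from the same fit. Alternatives used DESeq2 1.42.0, limma 3.58.1 with pseudocounts of 1 and 0.1, other scalings, filters, covariates and left-out libraries. The fit was tested on simulated data. Libraries of 1 group differed by more than counting noise (chi-square over its degrees of freedom 6.38 to 56.4), so none was merged. The genes and lists were chosen with earlier results of these data known. Named were all branched-chain genes, other list genes past the threshold with up to 4 more abundant ones, and leading cell type markers. Mmut, Cs, Tat, Pck1, Cyp2e1, Hpd, Fgg, Fgb, Ahsg, Apoa1, Kdr, Fcgr2b, Oit3 and Lyve1 were chosen after their values were seen. 1 gene of these lists was left out and is not reported here. Count precision was not expressed as counting intervals, since replicates give the error.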

Additional observations from a re-analysis of the deposited data

How the results depend on the processing

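The number of all genes called was 757 higher and 531 lower in the reported fit, and 1242 and 1022 with DESeq2. Leaving out 1 library gave 218 to 672 higher and 111 to 675 lower genes, and 1 to 10 branched-chain genes lower and none higher. The branched-chain genes that fell numbered 11, against 4 with the replicate block (Abat, Pcca, Pccb and Mccc2; 2.13% of all genes lower, against 3.19%) and 6 with a term for 15 hepatocyte markers, a setting chosen after the data were seen. With the block, the log2 values of the other 7 ran from -0.75 for Aldh9a1 to -0.41 for Hsd17b10, against -0.75 and -0.41 in the reported fit. The branched-chain genes that fell were between 9 and 14 under the other scalings, filters and tools, and 9 with the term for Alb and Ttr; the cause of these changes was not tested. The numbers of the replicates do not pair the samples by the labels, and same-numbered libraries deviated together with r = 0.07, 0.07 and -0.01 over genes. Not every library correlated best with its own number. Leaving out 1 library gave log2 values of -0.12 to 0.047 for Dld, above 0 without untreated replicate 3, and of -0.42 to 0.24 for Ttr, above 0 without 5-HT treated replicate 3. Other scalings moved the median of all genes by less than 0.01 on the log2 scale. Genes with few counts, such as Bcat1, were left out by the count filter of the reported fit. The fit of every gene with at least 1 count tested all 31 branched-chain genes.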
